A study of Mus musculus with 6 samples.

Results

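Tpm2, Tmod1, Tln1, Tes, Capza2, Wasl and Coro2a are 7 mouse genes whose products build, cap, nucleate or anchor actin filaments. They were chosen by name from the 53546 gene features of the deposited count files, and all 7 were found. No rule on their measured values was used, but earlier results of these data were known when they were chosen. The counts come from RNA sequencing of 6 libraries of C57BL/6 mice, 3 labelled control and 3 labelled spinal cord injury, and no further allele or agent is named for either group. The labels give the tissue as spinal cord and as intervertebral disc, while the text of the series speaks of retina from mice aged 21 days. The labels used here state no time after injury. They also do not say that each library is a different animal, and the p-values below cover just the variation between these libraries, which may be technical.

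Actin filaments grow mainly at their barbed end and lose subunits mainly at their pointed end. Tropomyosins lie along the filament, tropomodulins cap the pointed end and capping protein closes the barbed end. WASP family proteins switch on the Arp2/3 complex, which starts new branches, and coronins act on those branches. Talin joins integrins to actin at focal adhesions, where LIM domain proteins such as testin also gather. In the nervous system this machinery shapes growth cones, dendritic spines and the processes of glia.

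The control libraries did not form 1 group, and the values below are therefore given for every library. Kidney tubule markers (6 genes read of the 9 listed) summed to 3635 and 2063 CPM in controls 1 and 2, against 3.77 to 8.95 CPM in control 3 and the injury libraries, where Slc7a13, Aqp3 and Slc34a1 were at 0. CPM (counts per 1000000) is the count scaled by the library's total. Neuron markers (4 of 8 read) summed to 4.88 and 0.765 CPM in controls 1 and 2 and to 2776 to 3029 CPM in the other 4 libraries. Scn1a, Gria2, Frrs1l and Mog were at 0 in control 1, and Gria2 was at 0 in control 2. Oligodendrocyte markers (4 of 6 read) summed to 12.8 and 44.4 CPM against 2406 to 2838 CPM, and astrocyte markers (2 of 5 read) to 13.6 and 12.2 CPM against 1792 to 1957 CPM. Neuron and glia markers were thus high in control 3 and the injury libraries and low in controls 1 and 2. No gene particular to spinal cord was among the markers read, so they do not show which part of the nervous system was sampled. Cartilage and disc markers (Acan and Chad, 2 of 7 read) stayed between 2.05 and 12.6 CPM in all 6 libraries. No microglia marker could be read. The total count per library ran from 2385703 to 3921627, and the intervals below cover counting error only.

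A gene name in these files often does not match the place that was counted, and for only 1740 of the features (3.25%) did 90% or more of the exonic length fall on the named gene in the GENCODE M21 annotation of the mouse build GRCm38. All 7 genes were among them. Tpm2 (file coordinates chr4:43514711-43523765, minus strand), Tln1 (chr4:43531519-43562691, minus strand), Tmod1 (chr4:46038935-46116032, plus strand) and Coro2a (chr4:46536937-46602202, minus strand) matched over 100% of their exonic bases. Tes (chr6:17065148-17105827, plus strand), Capza2 (chr6:17636233-17666971, plus strand) and Wasl (chr6:24613804-24665008, minus strand) matched over 99.79% to 99.85%. These 3 genes on chromosome 6 start 1 base earlier than in GRCm38. Reads were counted without regard to strand, and reads on bases shared with another feature were dropped. This touched 1287 of the 3946 exonic bases of Tmod1 (shared with Tstd2), 360 of 9801 in Tln1 (Creb3), 329 of 6459 in Coro2a (Gm16731) and 144 of 6835 in Tes (Gm4876). Tpm2 (2909 exonic bases), Capza2 (5890) and Wasl (6165) shared none.

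Tes and Capza2 lie close together on chromosome 6, and their counts went in opposite directions between controls 1 and 2 and the other 4 libraries, so the DNA just upstream of their RefSeq start sites is shown. The letters are those of the RefSeq promoter table on GRCm38.p6, on the plus strand, from 5′ to 3′, and the Capza2 stretch stops where an exon of a protein-coding gene begins. It lies within the span of the Capza2 feature, which starts further upstream, but between the exons that were counted. The Tes stretch ends at the start of its feature. Capitals in Tes (chr6:17064899-17065148) mark 2 matches each to the CCAAT box (CCAAT) and the GC box (GGGCGG), all read on the opposite strand. Capitals in Capza2 (chr6:17636760-17636982) mark the palindrome GGAGCTCC, which was picked after the letters were seen.
Tes: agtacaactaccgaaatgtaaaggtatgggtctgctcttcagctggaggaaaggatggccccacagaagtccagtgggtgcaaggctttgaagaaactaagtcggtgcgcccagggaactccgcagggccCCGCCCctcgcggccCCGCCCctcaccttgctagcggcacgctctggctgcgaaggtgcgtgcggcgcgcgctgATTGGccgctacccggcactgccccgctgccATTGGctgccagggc
Capza2: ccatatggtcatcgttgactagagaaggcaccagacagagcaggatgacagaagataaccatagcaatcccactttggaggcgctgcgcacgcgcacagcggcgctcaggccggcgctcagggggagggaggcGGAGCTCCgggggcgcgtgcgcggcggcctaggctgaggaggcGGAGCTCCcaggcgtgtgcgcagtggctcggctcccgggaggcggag
Of the 32851 windows of 250 bases in that table, 33.8% held CCAAT, 32.7% held GGGCGG and 0.828% held GGAGCTCC, on either strand and with overlaps counted. The full Capza2 window held 3 copies of the palindrome and neither of the other motifs. G and C made up 64.8% of the Tes window and 70.4% of the Capza2 window, against a median of 52.4% over all windows. The dinucleotide CG occurred 19 times in Tes and 28 times in Capza2, against a median of 6. The CArG box was searched as CC, then 6 letters that are each A or T, then GG, and was in 1.47% of all windows. Neither it nor the TATA box (TATAAA, in 12.4%) had a match in the 8 windows of the 7 genes. The MCAT motif (CATTCC, in 12.6% of all windows) had no match in the windows of Tes and Capza2. These matches describe letters and were not tied to any binding measured here.

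The filament genes Tpm2 and Tmod1 had unlike patterns. Tpm2 encodes beta-tropomyosin, which is abundant in muscle and in contractile fibroblasts. Controls 1, 2 and 3 held 70, 541 and 129 Tpm2 counts, or 18.0, 138 and 49.3 CPM. The counts in injury 1, 2 and 3 were 155, 115 and 210, or 53.3, 40.4 and 88.0 CPM. Control 2 was the highest library and control 1 the lowest, so the control range enclosed every injury library. The means were 68.4 ± 62.2 CPM in control and 60.6 ± 24.6 CPM in injury (SD, n = 3 each).

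Injury 3 stood apart from the other injury libraries in Tpm2. Its interval of 76.5 to 101 CPM lay above those of injury 1 (45.3 to 62.4 CPM) and injury 2 (33.3 to 48.5 CPM; exact Poisson, 95%). The level in injury 3 was 1.88 times that in injury 1 and 2 pooled (95% exact interval 1.56 to 2.25), and 1.13% of the 11633 features with at least 100 counts had a higher ratio. Markers of other cell types moved with it. Skeletal muscle markers (Ckm, Myh4 and Actn3, 3 of 7 read) summed to 96.0 CPM in injury 3, against 2.06 and 0.702 CPM in injury 1 and 2 and 17.6 CPM in control 3. The fast muscle myosin Myh4 had 78.8 CPM in injury 3 and 1.03 and 0.351 CPM in the other injury libraries. Fibroblast markers (Col1a1, Col1a2 and Dcn, 3 of 5 read) summed to 581 CPM in injury 3 against 159 and 133 CPM. Smooth muscle markers (Myh11 and Actg2, 2 of 8 read) were at 5.85, 8.08 and 6.71 CPM in injury 1, 2 and 3. The part of these cells in the Tpm2 level was not tested, and in bulk RNA more cells of a type and more RNA per cell cannot be told apart.

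Tpm2 also separated the libraries of controls 1 and 2, which carried the kidney tubule markers. Control 2 held 7.68 times the level of control 1 (95% exact interval 5.98 to 9.996), and 5.19% of 11184 features had a higher ratio. Col1a2, a chain of type I collagen counted on its own exons, had 1573 CPM in control 2 and 46.2 CPM in control 1. Col1a1, the other chain, had 645 and 10.01 CPM. The endothelial marker Pecam1 had 244 and 50.05 CPM, and smooth muscle markers summed to 93.3 and 18.0 CPM. Skeletal muscle markers were near 0 in both (0.255 and 0.513 CPM), with Myh4 at 0. The share of these cell types in the Tpm2 difference was not tested.

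**Figure D1:**
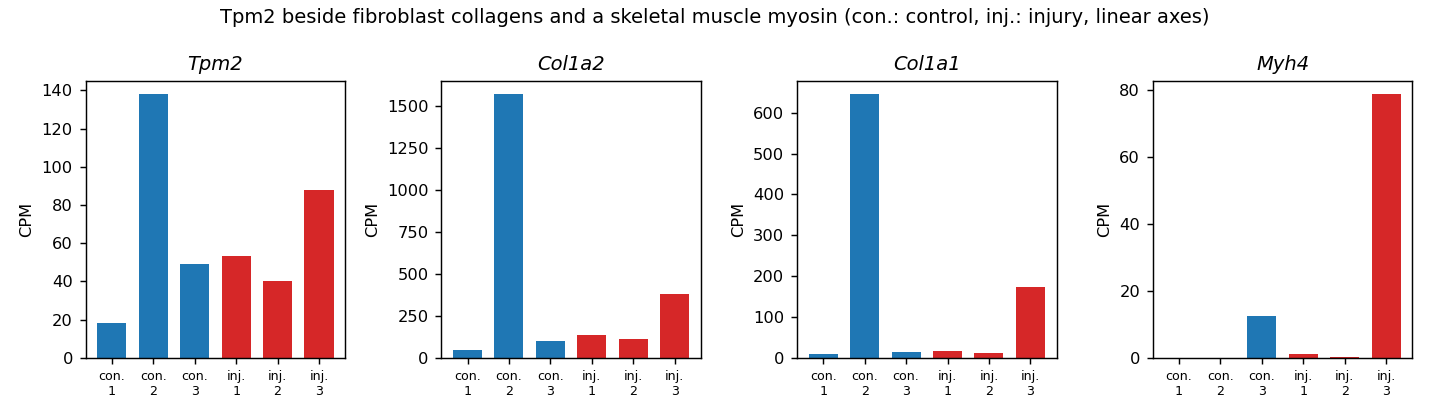
Levels (CPM, linear axes from 0) of Tpm2, of the type I collagen genes Col1a2 and Col1a1 and of the muscle myosin Myh4, with 1 bar per library (blue control, red injury). Control 2 and injury 3 are the highest libraries for Tpm2 (138 and 88.0 CPM) and for both collagens, while Myh4 is high in injury 3 (78.8 CPM) and at 0 in control 2.

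Tmod1 encodes tropomodulin 1, the pointed end cap of erythrocytes, muscle and neurons. Its level was 10.5 CPM in control 1, 9.18 in control 2 and 103 in control 3, and the 3 injury libraries followed with 97.7, 106 and 117 CPM. Control 3 lay within the injury range and controls 1 and 2 lay far below it. The means were 40.9 ± 53.7 CPM in control and 107 ± 9.62 CPM in injury (SD, n = 3 each). Erythroid markers (4 of 5 read) summed to 21.6, 60.2 and 359 CPM in the controls and to 408, 7.37 and 103 CPM in injury 1, 2 and 3. They were thus also lower in controls 1 and 2 than in control 3, but lowest in injury 2, where Tmod1 was at 106 CPM. Their part in the Tmod1 level was not tested. Injury 3 was 1.15 times injury 1 and 2 pooled, with an interval of 0.990 to 1.32 that includes no difference.

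The adhesion genes Tln1 and Tes were highest in controls 1 and 2. Tln1, which encodes talin 1, had 921, 1571 and 457 CPM in the controls and 656, 574 and 573 CPM after injury. Controls 1 and 2 exceeded every injury library, whereas control 3 was lower than all of them. The interval of control 3 (431 to 483 CPM) ended below the lowest injury interval, which began at 543 CPM. The means were 983 ± 559.5 CPM in control and 601 ± 47.4 CPM in injury (SD, n = 3 each). Injury 3 was 0.932 times injury 1 and 2 pooled (0.875 to 0.992).

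Tes encodes testin, a LIM domain protein of focal adhesions and stress fibres. It had 317, 122 and 25.2 CPM in the controls and 25.1, 19.3 and 16.3 CPM in the injury libraries. The groups did not overlap, but control 3 and injury 1 were separated by less than their counting error. The means were 155 ± 149 CPM in control and 20.3 ± 4.46 CPM in injury (SD, n = 3 each). Control 2 had 0.386 times the level of control 1, so the 2 control libraries with the highest Tes also differed from each other.

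Capza2 encodes an alpha subunit of capping protein, which stops growth at the barbed end. It had 332, 252 and 1013 CPM in the controls and 1015, 1182 and 1174 CPM in the injury libraries. Control 3 matched injury 1 to within counting error, and controls 1 and 2 were the lowest libraries. The means were 532 ± 418 CPM in control and 1124 ± 94.2 CPM in injury (SD, n = 3 each). Injury 3 was 1.07 times injury 1 and 2 pooled (1.02 to 1.12).

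Wasl encodes N-WASP, the broadly expressed activator of the Arp2/3 complex. It had 565, 330.2 and 650.4 CPM in the controls and 650.4, 769 and 791 CPM in the injury libraries. Control 3 and injury 1 were level, and the other 2 injury libraries were the highest. The means were 515 ± 166 CPM in control and 737 ± 75.5 CPM in injury (SD, n = 3 each). Injury 3 was 1.11 times injury 1 and 2 pooled (1.06 to 1.18).

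Coro2a encodes a coronin, a family of actin binding proteins built on WD repeats. It had 68.3, 84.7 and 91.0 CPM in the controls and 114, 114 and 113 CPM in the injury libraries. Every injury library was above every control, and the injury values lay within counting error of each other. The means were 81.3 ± 11.7 CPM in control and 114 ± 0.591 CPM in injury (SD, n = 3 each).

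**Figure D2:**
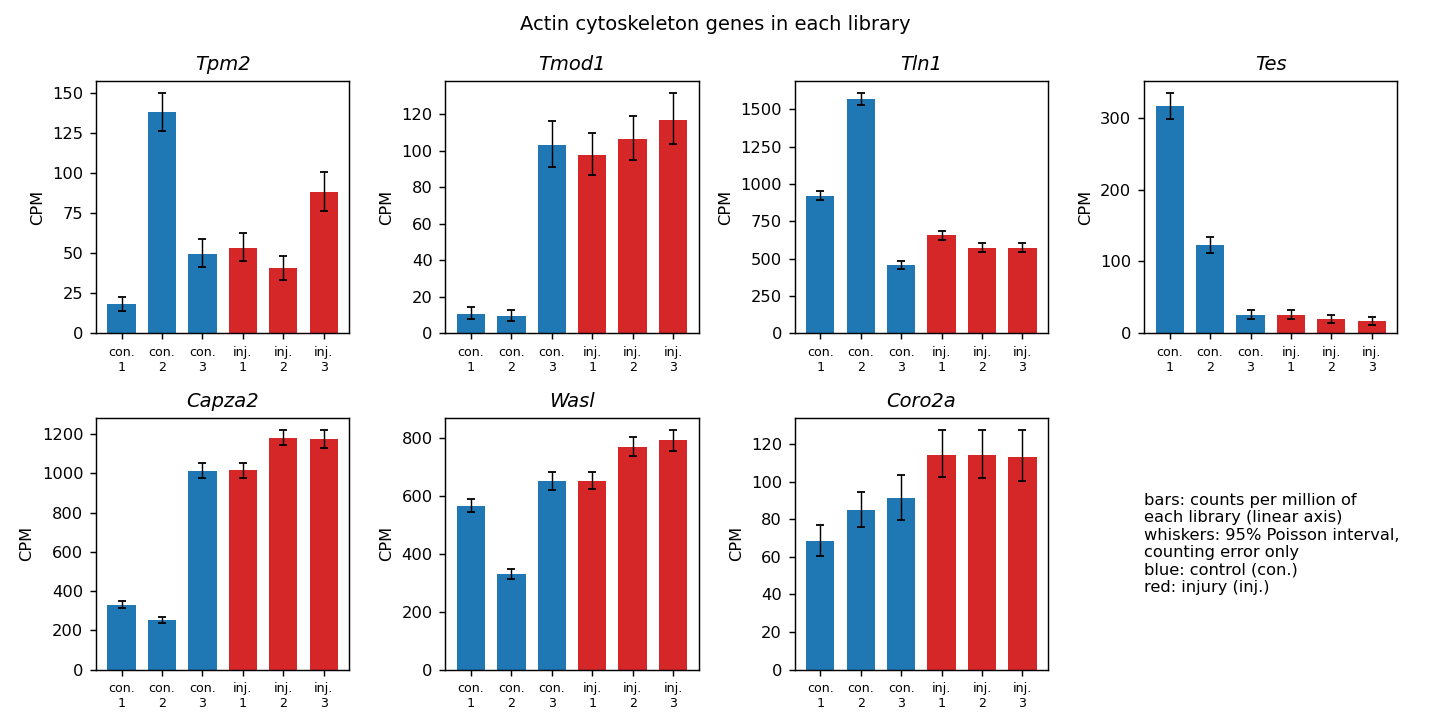
Levels (CPM, linear axes from 0) of the 7 genes, with 1 bar per library (blue control, red injury) and whiskers for the 95% Poisson interval of counting error. Control 3 stands with the injury libraries for Tmod1 (103 CPM), Capza2 (1013 CPM) and Tes (25.2 CPM), and Coro2a is at 113 to 114 CPM in the injury libraries against 68.3 to 91.0 CPM in the controls.

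Taken per kilobase of exon, the 7 genes kept nearly the same order in control 3 and the injury libraries. Capza2 led in the injury libraries with 191 ± 16.0 CPM per kb (SD, n = 3), followed by Wasl with 119 ± 12.2 and Tln1 with 61.3 ± 4.84 CPM per kb. Tmod1 (27.1 ± 2.44), Tpm2 (20.8 ± 8.47) and Coro2a (17.6 ± 0.0915 CPM per kb) came next, and Tpm2 differed from neither neighbour beyond its own spread. Tes was lowest with 2.96 ± 0.653 CPM per kb. In controls 1 and 2 Tln1 led with 94.0 and 160.2 CPM per kb, and Tmod1 was lowest with 2.67 and 2.33 CPM per kb. The Tmod1 values per kb count bases shared with Tstd2 that could receive no reads.

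Ratios of 2 genes within a library do not depend on its scaling. The count of Tes divided by that of Capza2 was 0.956 and 0.485 in controls 1 and 2, 0.0249 in control 3 and 0.0247, 0.0163 and 0.0139 in injury 1, 2 and 3. The count of Tmod1 divided by that of Tln1 was 0.0114 and 0.00585 in controls 1 and 2, 0.225 in control 3 and 0.149, 0.185 and 0.204 in the injury libraries. The count of Capza2 divided by that of Tln1 was 0.360 and 0.161 in controls 1 and 2, 2.22 in control 3 and 1.55, 2.06 and 2.05 in the injury libraries. In the last 2 ratios control 3 was above every injury library.

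Injury was compared with control to ask whether these transcripts differ after spinal cord injury. With all 6 libraries, edgeR's quasi-likelihood test with Benjamini-Hochberg adjustment over 12646 features called none of the 7 genes and no feature at an adjusted p under 0.05 (0% called). At an unadjusted p under 0.05 there were 3245 features, DESeq2 called 1503 (18 higher and 1485 lower) and limma-voom 0. Tes had the lowest p of the 7, with a log2 fold change of -2.91 ± 0.94 (SE) and an adjusted p of 0.133 by edgeR. DESeq2 called Tes, at -2.85 and an adjusted p of 0.0278. The other edgeR log2 fold changes were 1.54 ± 0.97 for Tmod1, 1.21 ± 0.67 for Capza2, 0.65 ± 0.28 for Coro2a, 0.62 ± 0.50 for Wasl, 0.15 ± 0.65 for Tpm2 and -0.51 ± 0.51 for Tln1, with adjusted p-values of 0.205 to 0.888. The median of all 7 was 0.62, beside -0.04 over all features and 0.62 over the 455 tested features that lie on their own exons, as the 7 genes do. In CPM, Capza2 and Coro2a were higher in every injury library than in every control and Tes was lower, as were 13.7% and 25.4% of all tested features, and 24.4% and 9.01% of those on their own exons.

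Without control 3, 3 of the 7 genes were called higher in injury by edgeR and 1 lower, against 30.2% and 36.6% of 15320 features. Of the 510 features on their own exons, 53.1% were called higher and 19% lower. These shares show how far controls 1 and 2 stood from the injury libraries in general, and the kidney tubule and neuron markers above moved with the same split, so injury and the source of these libraries cannot be told apart. Tmod1 was higher by 3.89 ± 0.34 (log2 fold change ± SE, adjusted p = 2.99e-04 by edgeR). Capza2 was higher by 2.37 ± 0.38 (adjusted p = 0.00218 by edgeR) and Coro2a by 1.06 ± 0.22 (adjusted p = 0.00557 by edgeR). Tes was lower, at -3.10 ± 0.55 (adjusted p = 0.00311 by edgeR). Wasl at 1.11 ± 0.43 (0.0552), Tln1 at -0.52 ± 0.23 (0.0889) and Tpm2 at 0.33 ± 0.67 (0.685) did not pass the adjusted threshold in edgeR. The median of the 7 genes was 1.06, beside -0.20 over all features and 1.04 over those on their own exons.

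Scaling mattered in this comparison. By library totals alone the median of all features moved from -0.20 to -0.75, and 3279 features were called higher and 6555 lower, against 4621 and 5610 with TMM. Tln1 then stood at -1.08 (adjusted p = 0.0138 by edgeR) and was called, and Coro2a at 0.55 (adjusted p = 0.0601 by edgeR) was not. Tpm2 changed sign to -0.40. Relative to the median of all features, Tln1 was at -0.32 with TMM and -0.33 with totals, Coro2a at 1.27 and 1.30, and Tpm2 at 0.53 and 0.35.

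With control 3 as the only control, no member passed the threshold in edgeR, which called 6.78% of 13857 features. Features on their own exons, as the 7 genes are, were called less often than that. The median log2 fold change of the 7 genes was 0.30, beside -0.03 over all features and 0.18 over those on their own exons. The spread in this fit comes from the injury libraries, and the lone control is taken to vary as they do. Tln1 came nearest, at 0.52 ± 0.16 (adjusted p = 0.0576 by edgeR), a sign opposite to that against controls 1 and 2. Coro2a was at 0.44 ± 0.17 (adjusted p = 0.111 by edgeR), and these 2 genes had an unadjusted p under 0.05. The remaining log2 fold changes were 0.41 for Tpm2, 0.30 for Wasl, 0.27 for Capza2, 0.18 for Tmod1 and -0.19 for Tes. Tmod1, Capza2 and Tes, which differed from controls 1 and 2 by more than 2 on the log2 scale, thus lay at 0.18, 0.27 and -0.19 against control 3, and the difference between these comparisons was not tested.

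**Figure D3:**
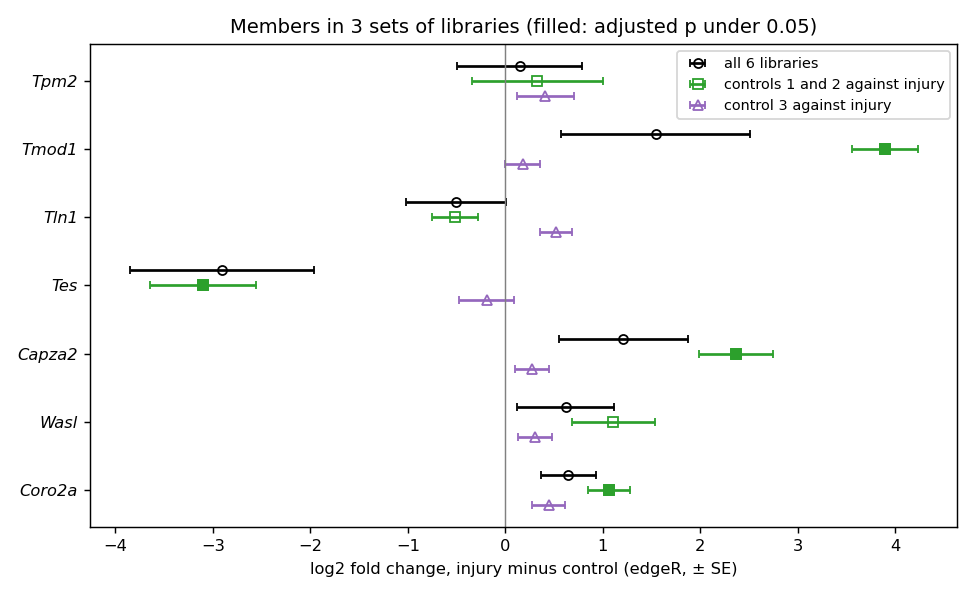
Log2 fold change of injury minus control for the 7 genes (edgeR estimate with SE bars) with all 6 libraries (circles), without control 3 (squares) and with control 3 as the only control (triangles), filled where the adjusted p was under 0.05. Filled symbols occur only without control 3, for Tmod1 (3.89), Capza2 (2.37), Coro2a (1.06) and Tes (-3.10), and the sign of Tln1 changes with the control used.

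Other genes of actin regulation were taken from 9 lists and a list of actins, 133 genes in all. Of these, 10 could be read by name and 53 through an overlying gene, that is, a feature of another name whose counted bases lie on exons of the listed gene. Parts of such a gene may go uncounted. With all 6 libraries edgeR called none, by name or by overlying gene (0% of 5128 genes in the second reading). DESeq2 called 8, all lower, as were 1485 of the 1503 features it called among all 12646. Its share over genes read by overlying gene is not given here. Without control 3, 19 of 60 tested were called higher and 26 lower by edgeR, with a median log2 fold change of -0.37. Read by name, 4 of 9 were higher and 3 lower, against the 53.1% and 19% of features on their own exons given above. Read by overlying gene, 15 of 51 were higher and 23 lower, against 28.1% and 31.5% of 5646 genes. The median of -0.37 joins 2 readings of opposite sign. By name the median was 0.29, beside 1.04 over the features on their own exons. By overlying gene the median was -0.54, beside -0.08 over all genes read in this way. With control 3 as the only control 0 of 54 were called, in a reading that called 0.708% of 5367 genes, and their median was 0.16. The share of 0.708% applies only to the 46 of these genes that were read by overlying gene. Their median was 0.17, beside 0.04 over all genes read in this way. The other 8 were read by name, in the fit of single features. Their median was 0.13, beside 0.18 over the features on their own exons. The levels below therefore describe mainly controls 1 and 2 against the other 4 libraries, and calls are those without control 3. When injury 3 was left out as well, 37 of the 45 calls remained, and Add1, Abi1, Sptan1, Sptbn1 and Syne1, named below, were among those no longer called.

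Among the relatives of Tpm2 and Tmod1, Tmod2, the neuronal tropomodulin, was at 0 counts in both controls 1 and 2, whereas control 3 held 127 CPM and the injury libraries 129, 137 and 139 CPM. Against a floor of 3 counts over both libraries it was at least 351-fold higher in injury. Tpm4, a short tropomyosin of non-muscle cells, was lower, with 111 and 218 CPM in controls 1 and 2 against 45.3 to 60.9 CPM in injury. Tmod1 and Tmod2 thus had their low values in the same libraries. Of the actins only Actg2 could be read, at 0 to 3.57 CPM.

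Among the adhesion genes 2 of 9 were higher and 4 lower without control 3. Actn1, an alpha-actinin that bundles filaments at adhesions, stood at 147 and 153 CPM in controls 1 and 2, at 29.4 CPM in the third control and at 27.7 to 34.4 CPM after injury. Actn4 and Pdlim7 were lower too (log2 fold changes of -2.65 and -1.86). Zyx, which encodes zyxin, was not called at -0.34 (adjusted p = 0.414 by edgeR), with 216, 156 and 101 CPM in the controls and 149 to 167 CPM in injury. Ctnnal1, which encodes alpha-catulin, was not called either, at 0.29 (adjusted p = 0.371 by edgeR). Flnc, the muscle filamin, was higher by 2.61 ± 0.45 (adjusted p = 0.00297 by edgeR). Its level was 40.0, 59.4 and 147 CPM in the controls and 299, 240.2 and 105 CPM in injury 1, 2 and 3, so injury 3 was below control 3 and below both other injury libraries. Flnc and Tpm2 therefore differed in opposite directions in injury 3.

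Capping and severing genes went both ways. Vil1 and Scin, severing proteins known from epithelia, had 147 and 90.01 CPM (Vil1) and 12.3 and 172 CPM (Scin) in controls 1 and 2, and at most 0.419 CPM in the other 4 libraries. Svil, the membrane linked supervillin, had 440.2 and 630 CPM against 104 to 117 CPM in those 4. Gsn (gelsolin) and Add1 (alpha-adducin) were higher in injury, by 1.86 and 1.21 on the log2 scale. Capza1, the other widely expressed alpha subunit of capping protein, was also called higher, but it was read by overlying gene and at low levels. It had 0.513, 0.765 and 8.79 CPM in controls 1, 2 and 3 and 4.92 to 6.71 CPM in injury. Control 3 was thus above every injury library, with a log2 fold change of -0.61 against control 3 alone, where Capza2 was at 0.27. In all, 4 of 11 were higher and 5 lower.

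Of the WASP and Arp2/3 genes 4 of 12 were higher and 5 lower. Arpc1b, a subunit of the Arp2/3 complex, had 130 and 199 CPM in controls 1 and 2 and 36.9 to 67.1 CPM in the other 4 libraries. Cttn (cortactin, which steadies branches) was lower by a similar amount, with log2 fold changes of -1.63 for Arpc1b and -1.56 for Cttn. Cttnbp2, a cortactin binding protein of neurons, was higher by 1.83 ± 0.27 (adjusted p = 0.00167 by edgeR). It had 273 CPM in control 3, above the 181 to 241 CPM of the injury libraries. The formin gene Fmnl2 was higher (0.93), and Abi1, of the WAVE complex, was lower (-0.79). Of the coronins 1 of 2 was lower, Coro1c at -2.31. Coro1b stood at 0.63 and was not called.

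Myosin and contractile genes had the lowest median, -3.10 over 5 genes, of which 4 were lower and 1 higher. Myh9, a non-muscle myosin heavy chain, had 649 and 917 CPM in controls 1 and 2 and 74.2 to 106 CPM in the other libraries. Mylk, the kinase of myosin light chain, had 109 and 207 CPM against 6.29 to 13.4 CPM. Myh10, the non-muscle myosin prominent in brain, went the other way, with 105 and 139 CPM against 325 to 381 CPM. Cald1 (caldesmon) had 64.9 and 490 CPM in controls 1 and 2, and the higher of them was control 2, as for Tpm2.

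The remaining lists were mixed. Of 5 crosslinkers and membrane linkers 3 were higher (the spectrins Sptan1 and Sptbn1, and Syne1) and Ezr, the epithelial ezrin, was lower, with 195 and 81.1 CPM in controls 1 and 2 against 5.27 to 8.26 CPM. Of 4 genes that bind monomers or drive disassembly, Cap2 was higher and Ssh2 lower, while Pfn1 (profilin 1) was at -0.12 and Ssh1 at -0.54, neither called.

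**Figure D4:**
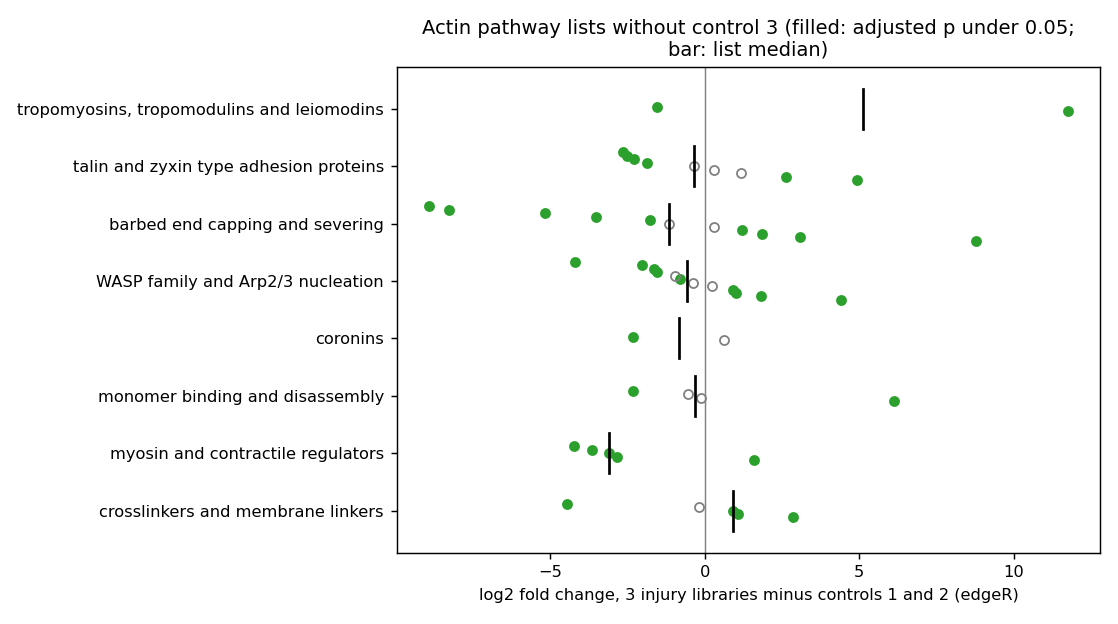
Log2 fold change of the 3 injury libraries minus controls 1 and 2 for the tested genes of 8 actin lists (edgeR, 1 point per gene, filled where the adjusted p was under 0.05, black bar for the list median). The medians run from -3.10 for myosin and contractile regulators to 0.92 for crosslinkers, apart from the 2 genes led by Tmod2, whose fitted value rests on 0 counts in controls 1 and 2.

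The features nearest in pattern were sought among 454 others counted on their own exons, by the root mean square difference of centred log2 CPM over the 6 libraries. Coro2a lay nearest to Il11ra1 (0.06), a gene with near-identical copies whose reads are uncertain, and then to Tnpo3 (0.10). Capza2 lay nearest to Cul2 (0.08) and Rab18 (0.10), and Wasl to Ddx3y (0.11) and Bag1 (0.11). Tmod1 lay nearest to Alg2 (0.15) and Cntfr (0.17), both low in controls 1 and 2 and high elsewhere. Tln1 lay nearest to D630039A03Rik (0.17) and Susd1 (0.18), and Tes to B4galt1 (0.26) and Met (0.47). Tpm2 had no close neighbour, the nearest being Cadps2 at 0.41 and Spaar at 0.42.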

How the data were processed

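RNA was measured in 6 mouse libraries, grouped by the labels' sample group field. Trizol RNA and TruSeq libraries are named per the labels' protocols, and Bowtie 0.12.2, mm8 and mm9 per the submitters' processing notes. The deposited values are raw counts of read pairs per gene name from featureCounts 2.0.1, run unstranded with multi-mapping and overlapping reads left out, per the file headers. The aligner, build and annotation behind the counts are not given in the sources used here. A table of the whole series was not used.

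Features were set against GENCODE M21 exons. A listed gene was read by name where 90% or more of its exonic length fell on its own exons. Otherwise it was read by overlying gene, summing features that shared 100 or more exonic bases with the annotation, 90% of them on that gene. The test was edgeR 4.0.16 (R 4.3.3), with TMM scaling, default filterByExpr, the quasi-likelihood test of injury against control and Benjamini-Hochberg adjustment, called at 0.05. All 7 genes passed the filter in each fit. The SE given for edgeR is the size of the log2 fold change divided by the square root of the test's F statistic. CPM uses library totals. Alternatives were other scalings and filters, DESeq2 1.42.0, limma-voom (limma 3.58.1), the replicate number as a block, and fits leaving out libraries. The script was tested on simulated data.

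Named genes are the 7 members, listed genes read by name with at least 5 mean CPM, and up to 4 per list read by overlying gene with the highest mean CPM. Capza1 is named outside that rule, after its value was seen, and so are marker genes. The members, lists and markers were chosen with earlier results of these data known. Of the lists, 1 enters the counts over all lists and its members are not described in the report. No protein sequence was used here.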

Additional observations from a re-analysis of the deposited data

How the results depend on the processing

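All settings were planned. With all 6 libraries, RLE, upper quartile or total count scaling, both other filters and limma-voom left 0 features called, while DESeq2 called 1503. In the lists, read by name or by overlying gene, DESeq2 called 8 genes. Leaving out 1 library gave 0 to 10231 called features and 0 to 45 called list genes, and all calls came without control 3. Control 3 as the only control gave 939 features. With control 3 left out, 10182 features and 44 list genes were called with RLE, 9834 and 44 with library totals, 9820 and 43 with DESeq2, and 8194 and 37 when injury 3 was left out too. The cause was not tested.

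The log2 fold change of Tpm2 turned negative with upper quartile scaling (-0.06), with library totals (-0.27), without control 1 (-0.27), without injury 3 (-0.04), without control 3 and injury 3 (-0.04) and without control 3 by totals (-0.40). Leaving out 1 library, it ran from -0.27 to 0.90. Tln1 turned to 0.52 against control 3 alone and was called at -1.08 without control 3 by totals, with a range of -0.52 to -0.21 over single libraries. Without control 3, the calls with injury 3 also left out, RLE, totals and DESeq2 were 3.82, 3.97, 3.42 and 3.98 for Tmod1, 2.34, 2.44, 1.93 and 2.44 for Capza2, and -2.97, -3.05, -3.45 and -3.06 for Tes. Coro2a was called at 1.07, 1.15 and 1.15, not by totals, and Wasl at 1.17 by DESeq2. Tes was also called by DESeq2 with all 6 libraries (-2.85). Leaving out 1 library, Tmod1 ran from 1.01 to 3.89, Capza2 from 0.79 to 2.37, Tes from -3.21 to -1.49, Wasl from 0.27 to 1.11 and Coro2a from 0.51 to 1.06.

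The replicate block called 0 features and 0 list genes, with 2655 at an unadjusted p under 0.05. Libraries of the same number did not deviate together (correlations of 0.06, -0.14 and 0.05), so the numbers were not taken as pairs. With 3 libraries per group, and neuron and glia markers low in 2 controls, every comparison with control is limited. The fit against control 3 has no spread among controls. Of the 133 listed genes 10 were read by name and 53 by overlying gene, which may be in part.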

Other observations

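Ssh2, which encodes a phosphatase that activates cofilin, stood at 178, 378 and 102 CPM in the 3 controls, and injury 1, 2 and 3 followed with 69.2, 47.4 and 43.6 CPM. Every injury library was below every control, as for 25.4% of all tested features. Ssh2 was read by overlying gene, and that share was taken over single features and not over genes read in this way. Against control 3 alone its log2 fold change was -0.89 and did not pass the threshold (adjusted p = 0.105 by edgeR). Tesk1, a kinase that acts on cofilin, had 50.6, 44.6 and 65.4 CPM in the controls and 86.7, 82.2 and 85.1 CPM in the injury libraries, which lay above all controls, as for 13.7% of all tested features and 24.4% of those on their own exons. Against control 3 alone it stood at 0.49 (adjusted p = 0.0922 by edgeR).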
